A study of Mus musculus with 435 samples.

Results

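Dividing cells of the fetal mouse gonad were set against non-dividing cells of the same microfluidic chip. The cells were chosen by their own measured levels of 2 genes, Mki67 and Top2a: a dividing cell had both at 10 RPKM or more, and a non-dividing cell had both below 1 RPKM (reads per kilobase of gene length, scaled to depth). Of 399 cells, 100 (25.1%) were dividing, 167 (41.9%) were non-dividing and 132 (33.1%) were neither. All were sorted by flow cytometry as Nr5a1-eGFP positive cells of XY gonads. The NR5A1-eGFP mice were on a mixed background, and the gonads were taken at embryonic day E10.5 and at later days up to E16.5 (E11.5, E12.5, E13.5). Nr5a1 is a transcription factor of gonadal somatic precursors and of their steroid-producing descendants, and sorting on the eGFP reporter aims at that lineage. The eGFP message was at 10 RPKM or more in 88 of 100 dividing and 144 of 167 non-dividing cells. Germ cell markers were carried by 6 cells and endothelial markers by 4. Both kinds of cell share stage and chip within a capture, and only the levels of the 2 marker genes set them apart by design.

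Cells pass through a gap phase (G1), a DNA replication phase (S), a further gap phase (G2) and mitosis. Mki67 coats mitotic chromosomes, and Top2a, a topoisomerase, untangles sister chromatids; the messages of both build up through S phase and peak in G2 and mitosis. In the fetal testis somatic precursors and Sertoli cells keep dividing while fetal Leydig cells, the androgen-producing cells, are known to divide rarely.

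The 9 captures, 1 at E10.5 and 2 at each later stage, are the replicates, and the labels do not say how many fetuses went into each. The spread behind each p-value is that between captures and may be partly technical. A capture needed 3 cells of each kind to enter the fit. The second E12.5 capture held 17 dividing and only 2 non-dividing cells and was left out, so 83 dividing and 165 non-dividing cells of 8 captures entered. Read depth, inferred from the value of a single read, had capture medians of 2.61 to 8.43 M reads per dividing cell and 1.98 to 8.09 M reads per non-dividing cell over those captures. Dividing cells had the higher depth in 7 of 8 captures, by 0.298 M reads on average (exact two-sided sign-flip permutation over captures, p = 0.0469). They also had more genes above 0. The median cell had 6265 ± 564 genes in dividing and 5285 ± 431 in non-dividing cells (mean over captures ± SD, n = 8), a difference of 980 that ran from 701 to 1388 and was positive in 8 of 8 captures (exact p = 0.00781, the smallest that 8 captures allow). The part that detection plays in the gene differences described here was not tested beyond the fits named beside them.

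The chosen levels are a description and carry no test. In dividing cells Mki67 ran from 10.3 to 279 RPKM with a median of 56, and Top2a from 10.2 to 696 RPKM with a median of 143. Both genes were at exactly 0 in 61 of the 167 non-dividing cells. Just inside the dividing class lay cells with 32.6 RPKM of Mki67 and 10.2 of Top2a, and with 10.3 of Mki67 and 61.2 of Top2a. Just outside it lay cells with 9.77 RPKM of Mki67 and 223 of Top2a, and with 137 of Mki67 and 9.06 of Top2a. On the non-dividing side, a cell with 0.983 RPKM of Mki67 and 0.356 of Top2a was inside, and one with 0.0706 of Mki67 and 1.03 of Top2a was outside. Of the 132 cells that were neither, 67 had Top2a alone at 10 RPKM or more, 18 had Mki67 alone, and 47 had both below 10.

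The share of dividing cells ran from 12.2% to 45.9% over captures, and both of these ends lie among the middle stages. It is a description with no test. It was 39% at E10.5 (Wilson 95% interval 27.6 to 51.7%, 59 cells), the only capture of that stage. At E11.5 it was 7 of 52 cells (6.68 to 25.3%) in the first capture and 12.2% (5.32 to 25.5%, 41 cells) in the second. At E12.5 it was 16.7% (7.34 to 33.6%, 30 cells) in the first capture and 45.9% (31 to 61.6%, 37 cells) in the second. At E13.5 it was 28.6% (18.4 to 41.5%) and 16.1% (8.69 to 27.8%), with 56 cells each, and at E16.5 it was 24.2% (12.8 to 41%, 33 cells) and 28.6% (16.3 to 45.1%, 35 cells). These intervals cover counting error only. The second E12.5 capture stood apart on the other side too, with 5.41% non-dividing cells (1.5 to 17.7%), against 23.7% to 68.3% in the other captures.

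**Figure D1:**
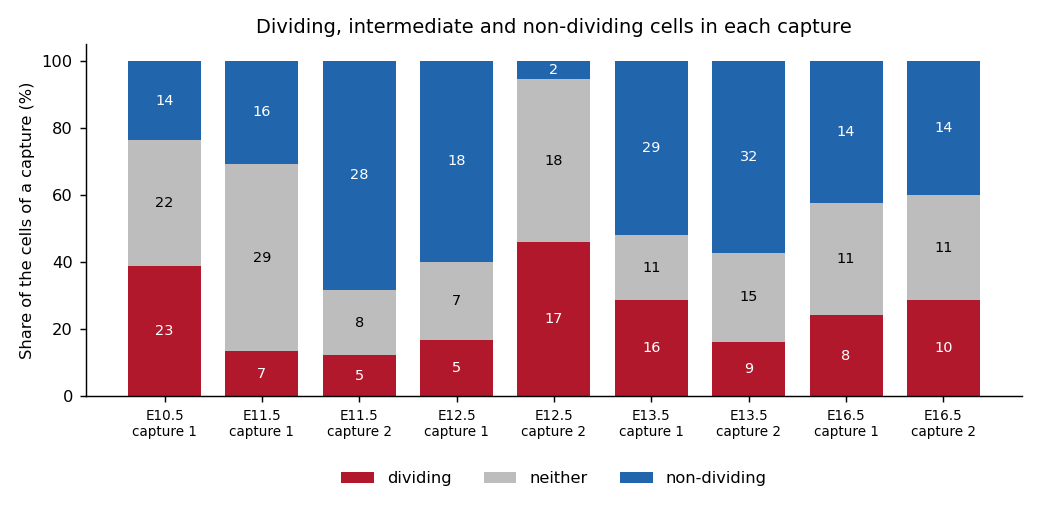
Share of dividing, intermediate and non-dividing cells in each of the 9 captures (vertical axis, percent of the cells of a capture; numbers in the bars are cells). The second E12.5 capture has 17 dividing and 2 non-dividing cells, while the other captures have 5 to 23 dividing and 14 to 32 non-dividing cells.

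The cell types among the dividing cells were read from fixed marker lists, where a cell carries a list if at least 3 of its markers are at 10 RPKM or more. Sertoli markers were carried by 119 cells, of which 33 were dividing (27.7%, Wilson 20.5 to 36.4%) and 50 were non-dividing. Among the 280 cells that did not carry them, which include all 59 cells of E10.5, 67 were dividing (23.9%, 19.3 to 29.3%). These intervals pool cells over captures and cover counting error only, so they do not compare the groups. Interstitial progenitor markers were carried by 334 of the 399 cells, 85 of them dividing (25.4%, 21.1 to 30.4%). The lists overlap, so carrying a list does not assign a cell to a single type. In the second E12.5 capture 36 of 37 cells carried the interstitial list and 22 the Sertoli list. Coelomic epithelium and early progenitor markers were carried by 136 cells, 38 of them dividing (27.9%, 21.1 to 36%). Fetal Leydig markers were carried by 12 cells, 1 of them dividing (8.33%, 1.49 to 35.4%) and 7 non-dividing. Smooth muscle and peritubular markers were carried by 46 cells, 14 of them dividing (30.4%, 19.1 to 44.8%).

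Stage and capture run through these shares. No Sertoli marker carrier was dividing in either E11.5 capture (0 of 7 and 0 of 9). Among the other cells of those captures 7 of 45 and 5 of 32 were dividing, and the shares were not tested. In the E12.5 captures 1 of 5 and 13 of 22 carriers were dividing. The E13.5 captures had 9 of 24 and 2 of 14 carriers dividing, and the E16.5 captures 4 of 20 and 4 of 18. Germ cell markers were carried by 6 cells, 5 of them in the second E12.5 capture, where 4 of the 17 dividing cells carried them. No cell carried the macrophage or the erythroid list, 4 carried the endothelial list and 2 the mesonephric one.

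Within captures, the mix of cell types in dividing and non-dividing cells was compared by the same exact test, with p adjusted over 8 marker lists that any cell carried. The smallest exact p that 8 captures allow is 0.00781, so after this adjustment a list on its own could not fall under 0.05. Sertoli markers were carried by 23.6 ± 23% of dividing and 31.4 ± 22.7% of non-dividing cells (mean over captures ± SD, n = 8; exact p = 0.281, adjusted 0.562). Coelomic epithelium markers were carried by 40.8 ± 22.9% of dividing and 24.8 ± 17.9% of non-dividing cells, higher in 7 of 8 captures (exact p = 0.0391, adjusted 0.25). Fetal Leydig markers were carried by 0.781 ± 2.21% of dividing and 3.72 ± 3.8% of non-dividing cells, lower in 5 captures and equal in the others (exact p = 0.0625, adjusted 0.25). Interstitial markers were carried by 81 ± 17.9% of dividing and 77.3 ± 14.6% of non-dividing cells (exact p = 0.484, adjusted 0.667). Of the 5 cells that carried both Sertoli and Leydig markers, which can mark doublets, 0 were dividing and 4 were non-dividing.

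Across the genome the dividing cells carried more message of most genes of G2 and mitosis, and of other genes besides. Of 11286 genes tested, Mki67 and Top2a left out, 221 (1.96%) were higher and 26 (0.23%) lower in dividing cells at an adjusted p under 0.05, while 1429 had an unadjusted p under that value. When log2 values were averaged over cells instead, 685 were higher and 10 lower. Of the 221 higher genes 124 were on one of the pathway lists, 85 of them on that of G2 and mitosis, and the others were on none. Of the 221 higher genes, 198 were higher in all 8 captures, and 17 of the 26 lower genes were lower in all 8. The median difference over all genes was -0.16 on the log2(mean RPKM + 1) scale, on which every log2 difference here is given and which understates the change of low genes. That median was 0.16 with the mean over cells of log2 values. Because the cells were chosen on cell cycle genes, a difference in another cell cycle gene says how closely that gene went with Mki67 and Top2a within captures and is not independent of the choice. With the mean number of detected genes added to the fit no gene was called in either direction (825 with an unadjusted p under 0.05). The median standard error was then 3.85 times as large, since dividing cells had more detected genes in every capture, and detection and kind of cell cannot be told apart in that fit.

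Genes of G2 and mitosis were higher nearly without exception. Of 91 genes on the list 89 were tested, 85 were called higher, 0 were called lower, and their median difference was 3.83, against -0.16 over all genes. Plk4 did not pass, nor did Kif18b at 1.95, Nek2 at 1.72 and G2e3 at 1.48. Within single captures the list's median ran from 3.07 (E10.5) to 4.59 (second E16.5 capture), and 87 to 89 of the 89 genes were above 0 in each.

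Genes of the spindle were among those with the largest differences. Nusap1, which bundles spindle microtubules (chr2:119618298-119651244, plus strand, GRCm38), had a lowest, median and highest capture mean of 45.8, 69.1 and 169 RPKM in dividing cells, against 0.0209, 0.0812 and 0.484 RPKM in non-dividing cells. No capture of one kind reached the other, 67 of 100 dividing and 0 of 167 non-dividing cells had 10 RPKM or more, and the log2 difference was 6.05 ± 0.40 (SE; adjusted p = 2.64e-06). The depolymerising kinesin Kif2c ran from 31.1 to 95.5 RPKM over captures in dividing cells and from 0.00145 to 1.76 RPKM in non-dividing cells, a log2 difference of 5.62 ± 0.37. Kif11, the motor that pushes spindle poles apart, ran from 36.5 to 90.2 RPKM against 0.00503 to 7.23 RPKM, with a log2 difference of 5.31 ± 0.45. Its non-dividing mean was above 1 RPKM only in the first E11.5 capture. Prc1 and Tpx2, which crosslink and nucleate spindle microtubules, had log2 differences of 5.15 and 5.12, and the chromosome-arm kinesin Kif22 had 5.34.

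Cyclins, kinases and genes of the ubiquitin ligase that ends mitosis had differences of like size. Ccnb1, the cyclin that drives entry into mitosis, had a lowest, median and highest mean of 74.3, 98.5 and 134 RPKM in dividing cells, against 0.0227, 0.627 and 7.68 RPKM in non-dividing cells (log2 difference 5.54 ± 0.44, adjusted p = 6.00e-06). Its partner kinase Cdk1 was at 67.2 to 158 RPKM in dividing and 2.83 to 27.6 RPKM in non-dividing cells, a smaller log2 difference of 3.23 ± 0.32 with groups that still did not overlap. Ube2c, the ubiquitin-conjugating enzyme of the anaphase-promoting complex, was at 70.3 to 227 RPKM in dividing and 0.0154 to 16 RPKM in non-dividing cells (5.23 ± 0.46), and its activator Cdc20 was at 32.6 to 104 RPKM in dividing and 0 to 15 RPKM in non-dividing cells (4.60 ± 0.50). Aurkb, the kinase of the chromosomal passenger complex, had a log2 difference of 5.13 and Aurka, the centrosomal kinase, 4.70. Plk1, the polo kinase, did not separate the kinds in every capture. It ran from 5.3 to 106 RPKM in dividing cells and from 0.00326 to 31.9 RPKM in non-dividing cells, was higher in 7 of 8 captures, and in the first E13.5 capture stood at 5.3 RPKM in dividing and 7.29 RPKM in non-dividing cells (log2 difference 3.73 ± 0.70, adjusted p = 0.00738). Shcbp1, Ckap2l and Ska3, the last a kinetochore subunit, had log2 differences of 5.61, 5.67 and 5.17.

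**Figure D2:**
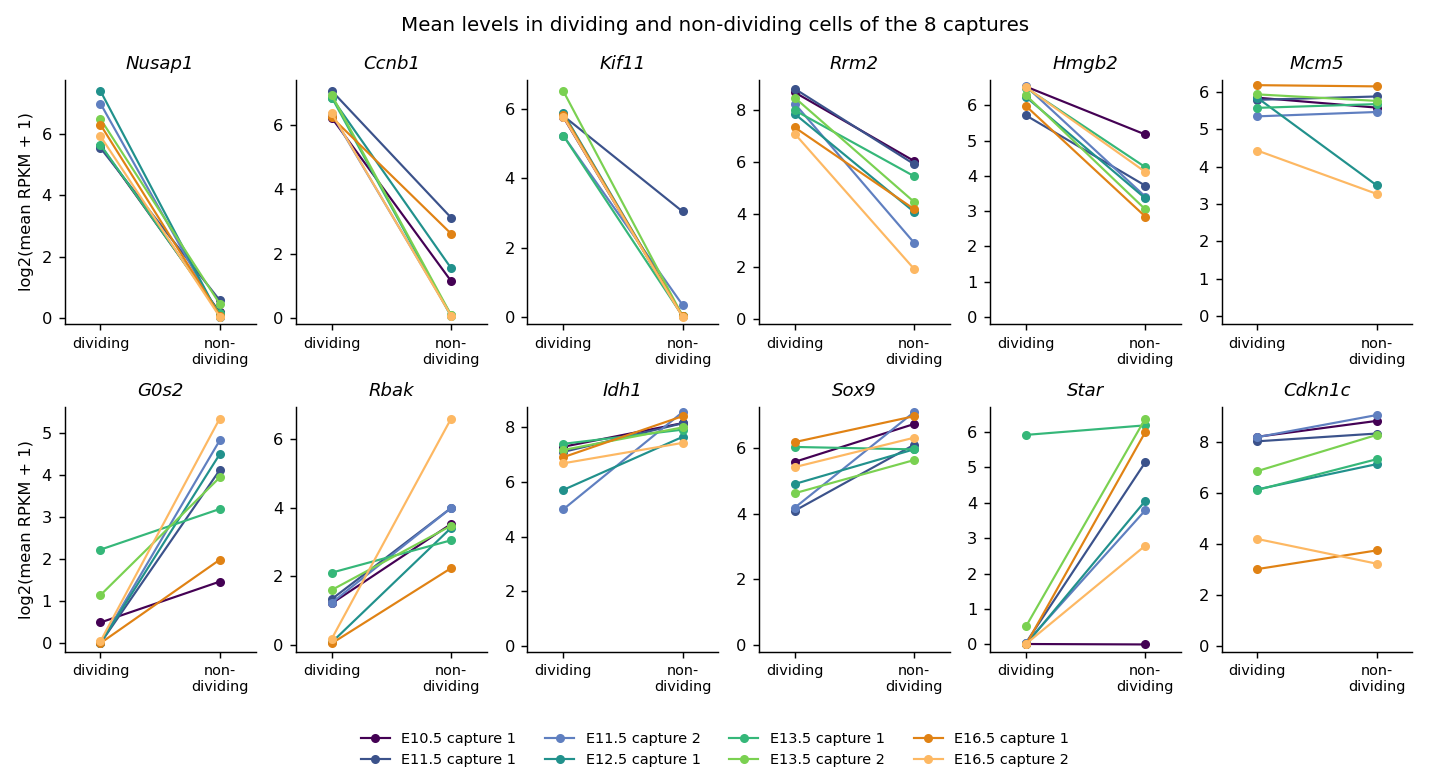
Mean level of 12 genes in dividing (left) and non-dividing (right) cells of the 8 captures (vertical axis, log2(mean RPKM + 1); each line is a capture). Nusap1 lies high in dividing and near 0 in non-dividing cells in every capture, Mcm5 is higher in dividing cells in 5 of 8, and G0s2, Rbak and Idh1 are lower in dividing cells in 8 of 8.

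The promoters of genes that move together in this way are known for CCAAT boxes, bound by NF-Y, and for the cell cycle homology region (TTTGAA and its variant TTTAAA), bound by complexes of the DREAM and B-MYB type. Of the 221 higher genes, 158 had a promoter in RefSeq (GRCm38.p6, windows of 300 bases that end 50 bases after the start; the first listed start where a gene has several). CCAAT on either strand occurred in 108 of these (68.4%), against 3 of 20 promoters of lower genes (15%), 39.4% of the 8509 promoters of tested genes and 37.9% of all 27025 promoters. The homology region on either strand occurred in 91 of 158 (57.6%), in 5 of 20 for lower genes (25%), in 18.8% of tested genes and in 27.8% of all promoters. Both together occurred in 68 of 158 (43%), in 0 of 20 for lower genes, in 7.77% of tested genes and in 10.9% of all promoters. Among the 72 G2 and mitosis genes with a promoter, 51 (70.8%) held CCAAT and 53 (73.6%) held a homology region. Among the 45 S phase genes with a promoter, 26 (57.8%) held CCAAT and 12 (26.7%) held a homology region. The E2F site, searched on either strand as TTTCCCGC, as TTTCGCGC, as TTTGCCGC and as TTTGGCGC, occurred in 16 of those 45 (35.6%) and in 7 of the 72 G2 and mitosis promoters (9.72%), against 4.3% of tested genes and 2.32% of all promoters. These searches can overlap, and the matches are of letters only and were not tested.

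The promoters of 4 G2 and mitosis regulators are shown because each holds both elements; the start lies 50 bases before the right-hand end, and capitals mark the CCAAT boxes and homology regions on either strand.
Ccnb1 (chr13:100786437-100786736, - strand): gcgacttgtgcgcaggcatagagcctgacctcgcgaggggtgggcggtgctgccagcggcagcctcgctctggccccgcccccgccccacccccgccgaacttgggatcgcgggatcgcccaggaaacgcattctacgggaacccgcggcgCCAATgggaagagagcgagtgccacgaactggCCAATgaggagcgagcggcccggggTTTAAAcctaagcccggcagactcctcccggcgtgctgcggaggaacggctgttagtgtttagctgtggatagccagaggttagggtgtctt
Cdk1 (chr10:69352863-69353162, - strand): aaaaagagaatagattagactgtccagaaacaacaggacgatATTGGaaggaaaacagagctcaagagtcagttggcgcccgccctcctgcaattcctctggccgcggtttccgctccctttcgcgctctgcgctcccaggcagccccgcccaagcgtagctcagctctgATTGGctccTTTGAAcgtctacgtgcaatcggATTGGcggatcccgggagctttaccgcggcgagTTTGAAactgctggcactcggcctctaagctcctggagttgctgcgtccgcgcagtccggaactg
Plk1 (chr7:122159185-122159484, + strand): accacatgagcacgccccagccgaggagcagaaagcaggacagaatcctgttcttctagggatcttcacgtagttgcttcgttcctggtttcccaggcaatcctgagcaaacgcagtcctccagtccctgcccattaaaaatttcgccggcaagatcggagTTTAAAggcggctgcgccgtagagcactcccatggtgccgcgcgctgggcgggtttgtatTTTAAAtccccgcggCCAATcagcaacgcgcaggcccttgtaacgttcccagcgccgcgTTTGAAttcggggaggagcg
Cdc20 (chr4:118437294-118437593, - strand): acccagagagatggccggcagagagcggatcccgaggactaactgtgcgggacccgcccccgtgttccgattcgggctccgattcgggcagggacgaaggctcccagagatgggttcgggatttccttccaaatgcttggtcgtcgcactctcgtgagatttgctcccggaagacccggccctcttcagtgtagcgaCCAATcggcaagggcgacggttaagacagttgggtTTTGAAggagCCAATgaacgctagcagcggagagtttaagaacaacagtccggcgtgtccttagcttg
Ccnb1 and Cdc20 hold 2 CCAAT boxes each, Cdk1 holds 3 and Plk1 holds 1. Homology regions number 1 in Ccnb1 and Cdc20, 2 in Cdk1 and 3 in Plk1.

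Transcription factors of the cycle, those that act through such elements among them, were mostly not called. Of 22 cell cycle transcription factors tested, 3 were higher, 0 were lower, 18 lay above 0 and the median difference was 0.57. Over all genes tested a smaller share, 1.96%, was higher and the median was -0.16. Foxm1, the activator of mitotic genes, was at 4.79 to 42.9 RPKM in dividing and 0 to 3.58 RPKM in non-dividing cells (3.52 ± 0.48, adjusted p = 0.000497). The repressor E2f8 was at 4.67 to 16.2 RPKM in dividing and 0 to 4.51 RPKM in non-dividing cells (log2 difference 2.86). E2f7, its relative, was at 1.88 to 17.1 RPKM in dividing and 0 to 1.65 RPKM in non-dividing cells (2.15). The E2f7 call was lost without 6 of the 8 captures in turn, those at E10.5 to E13.5, with adjusted p of 0.0532 to 0.105. Mybl2, the B-MYB gene, had 2.10 ± 0.59 and adjusted p = 0.0988, and the NF-Y genes Nfya, Nfyb and Nfyc had 0.27, 0.66 and 0.72, none of them called.

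DNA replication genes split. Of 57 tested, 20 were higher, 0 were lower, 55 lay above 0 and the median was 1.09; within captures that median ran from 0.96 (first E16.5 capture) to 1.47 (first E12.5 capture). Of 25 nucleotide synthesis genes, 4 were called (median 0.58). Rrm2, the small subunit of ribonucleotide reductase, had a lowest, median and highest mean of 136, 279 and 451 RPKM in dividing cells, against 2.78, 19.5 and 65.4 RPKM in non-dividing cells (3.68 ± 0.32, adjusted p = 1.01e-05), with no overlap. The large subunit Rrm1 had 105 to 261 RPKM in dividing and 31 to 91.8 RPKM in non-dividing cells (1.73 ± 0.22). Thymidylate synthase, Tyms, had 45.9 to 120 RPKM in dividing and 8.09 to 39.2 RPKM in non-dividing cells (2.02 ± 0.31), and thymidine kinase, Tk1, had 14.8 to 47.2 RPKM in dividing and 0.00575 to 5.65 RPKM in non-dividing cells (3.37 ± 0.46). Of genes of purine synthesis, these were not called: Paics at 0.24, Gart at -0.07 and Ppat at 0.40. The histone chaperone Asf1b (3.84 ± 0.49) and the initiation factor Mcm10 (3.48 ± 0.47) were also higher.

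None of the 6 helicase genes Mcm2 to Mcm7, nor the sliding clamp gene Pcna, was called. Mcm5 was at 20.5 to 71.1 RPKM in dividing and 8.65 to 69.5 RPKM in non-dividing cells, with a difference of 0.46 ± 0.30 (adjusted p = 0.573). Mcm2 had 0.25 ± 0.30 and Mcm6 0.36 ± 0.33, and Mcm4 was at -0.15. Pcna was at 20.1 to 73.8 RPKM in dividing and 11.2 to 36.1 RPKM in non-dividing cells, 0.86 ± 0.27 (adjusted p = 0.164), and passed with the mean over cells of log2 values (1.34, adjusted p = 0.0112), as did Mcm6 (1.43). Many non-dividing cells carried these messages. Mcm5 reached 10 RPKM in 48 dividing cells (48%) and 56 non-dividing cells (33.5% of the 167). Pcna did so in 77 dividing cells (77%) and 80 non-dividing cells (47.9%), so both shares were higher in dividing cells. The rule asks of a non-dividing cell only that Mki67 and Top2a were below 1 RPKM.

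Repair and chromatin genes that serve replicating DNA were higher in part. Of 23 homologous recombination and Fanconi anaemia genes tested, 8 were higher, 0 were lower and the median was 1.41. Among them Brca1 had a log2 difference of 2.29, Brip1 2.59 and Fancd2 2.58. Of 27 chromatin genes, 9 were higher, 0 were lower and the median was 0.66. Hmgb2, a DNA-bending protein, was at 51.5 to 92.2 RPKM in dividing and 6.19 to 35.1 RPKM in non-dividing cells (2.55 ± 0.28), and the variant histones H2afx and H2afz had 3.30 and 1.48. The lamina-associated Tmpo had a median of 99.9 RPKM over captures in dividing and 39.7 RPKM in non-dividing cells (1.21 ± 0.20). Of the cluster histone genes, made in S phase, 36 of 67 were tested and 13 were higher, 0 lower and 30 above 0. Hist1h4d was at 126 to 372 RPKM in dividing and 3.54 to 32 RPKM in non-dividing cells (3.78 ± 0.30). These genes are near-identical copies, so the count cannot be given to single copies with certainty, and the same holds for the tubulins Tubb4b and Tuba1c.

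Some called genes share a locus. Nusap1 overlaps Oip5 by 172 bases, Parpbp overlaps Pmch by 944, Cdc25c overlaps Gm3550 by 1656 and Fam166a overlaps Tubb4b by 121, each on opposite strands in GENCODE M21. Whether reads kept their strand is not given in the sources used here, so reads from the overlaps cannot be told apart. Parpbp, a regulator of recombination, was at 1.73 to 25.1 RPKM in dividing and 0 to 0.0955 RPKM in non-dividing cells (3.66 ± 0.46).

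**Figure D3:**
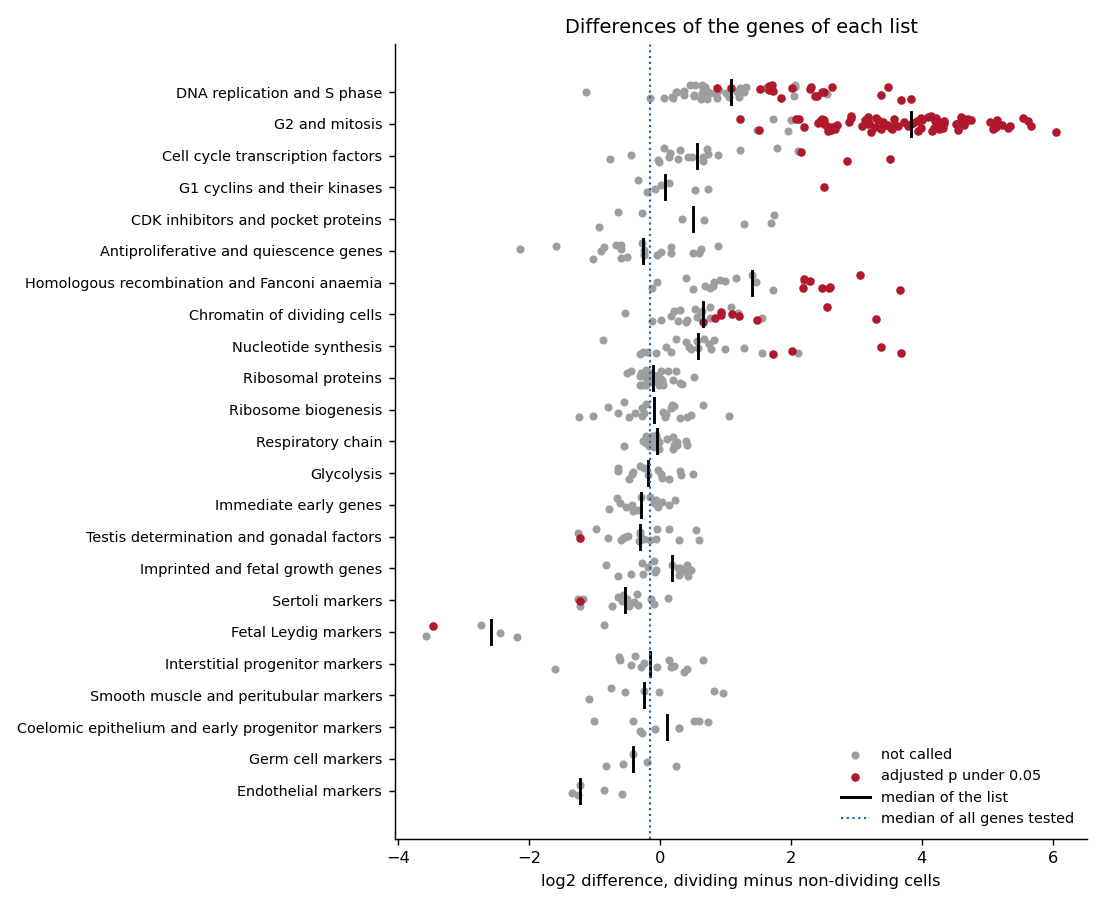
Log2 difference of each tested gene (points; horizontal axis, dividing minus non-dividing) by gene list, with red points at an adjusted p under 0.05, black bars at the list's median and a dotted line at the median of all genes tested, -0.16. The G2 and mitosis list lies to the right with a median of 3.83, the S phase list spreads around 1.09, and the metabolic lists centre near 0.

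One gene of the G1 cyclin list passed, and none of the growth lists did. Of 8 G1 cyclins and kinases only Ccne2, the cyclin that fires replication, was higher, at 2.33 to 39.7 RPKM in dividing and 0.372 to 7.43 RPKM in non-dividing cells (2.51 ± 0.50, 7 of 8 captures). Ccnd1 and Ccnd2, the cyclins that answer growth signals, had -0.20 ± 0.59 and -0.34 ± 0.27. None of 36 ribosomal protein genes was called (median -0.11), none of 22 ribosome biogenesis genes (-0.09), none of 23 respiratory chain genes (-0.04) and none of 15 glycolysis genes (-0.19). Rpl4 was at 1197 to 1919 RPKM in dividing and 1295 to 2227 RPKM in non-dividing cells, and Npm1, a nucleolar chaperone, had 0.07 ± 0.10. None of 15 immediate early genes was called (median -0.29), Fos and Egr1 having -0.29 and -0.15. None of 19 imprinted and fetal growth genes was called (median 0.18), with Mest at 0.18 ± 0.17. A value that missed the threshold does not show that the kinds were alike. Over all genes tested 1.96% were called higher and 0.23% lower, and at those shares lists of these sizes can hold no call.

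Brakes on the cycle were not called either. Of 8 CDK inhibitor and pocket protein genes tested, 0 passed in either direction (median 0.51). Cdkn1c, the p57 inhibitor, ran from 7.14 to 293 RPKM with a median of 92.4 in dividing cells and from 8.42 to 529 RPKM with a median of 233 in non-dividing cells. It was lower in dividing cells in 7 of 8 captures and higher in the second E16.5 capture, at 17.4 RPKM in dividing and 8.42 RPKM in non-dividing cells (-0.64 ± 0.23, adjusted p = 0.242). Without that capture it passed (-0.87, adjusted p = 0.0105), and over its leave-one-out fits adjusted p ran from 0.0105 to 0.451. Cdkn2d, the p19 inhibitor, had 1.74 ± 0.63 (adjusted p = 0.242), and Cdkn1b, the p27 inhibitor, 0.34 ± 0.41. Of 22 antiproliferative and quiescence genes none was called (median -0.26), and Btg1 and Btg2 had -0.27 and -0.24. With 1.96% of all genes called higher and 0.23% lower, lists this short can hold no call.

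The 26 lower genes formed no mitotic counterpart. Just 2 of them, Sox9 and Star, were on any list. With non-dividing cells taken at 0 in both marker genes (75 dividing and 59 non-dividing cells), 2 genes were lower and the median over all genes was 0.11. In the main fit that median ran from -0.29 (second E11.5 capture, 5 dividing and 28 non-dividing cells) to 0.02 (E10.5, 23 and 14 cells) over captures. The part of unequal cell numbers in the lower calls was not tested. Among the named genes lower in all 8 captures the largest difference was in G0s2, an inhibitor of the triglyceride lipase. It had a lowest, median and highest mean of 0, 0.0157 and 3.68 RPKM in dividing cells, against 1.76, 15.4 and 39.7 RPKM in non-dividing cells (-3.18 ± 0.58, adjusted p = 0.00552), and reached 10 RPKM in 5 of 100 dividing and 30 of 167 non-dividing cells. Rbak, a zinc finger protein that binds the retinoblastoma protein, was at 0.0291 to 3.3 RPKM in dividing and 3.71 to 96.1 RPKM in non-dividing cells, without overlap (-2.81 ± 0.55, adjusted p = 0.0101). Idh1, the cytosolic isocitrate dehydrogenase that makes NADPH, was at 30.8 to 166 RPKM in dividing and 170 to 371 RPKM in non-dividing cells, also without overlap (-1.37 ± 0.27, adjusted p = 0.0114).

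Further lower genes were Tcp11l2 (-2.97), Tmem150a (-2.83) and Cdk20, a CDK-related kinase (-2.48). The ferritin heavy chain Fth1, which stores iron, averaged 799 RPKM in dividing and 1290 RPKM in non-dividing cells (-0.70 ± 0.10, adjusted p = 0.000516, 8 of 8 captures lower), and the mitochondrial peroxidase Prdx3 averaged 105 RPKM in dividing and 203 RPKM in non-dividing cells (-1.02 ± 0.18); these genes were picked after their values were seen. Without cells carrying the Sertoli markers, G0s2 and Tmem150a were still called, while Tcp11l2 (adjusted p = 0.315), Cdk20 (0.413), Rbak (0.0713) and Idh1 (0.0676) were not, at log2 differences of -2.35, -1.30, -2.29 and -1.22. For 6 further genes the call also depended on single captures. Atg10, an enzyme of autophagosome assembly (-2.36), Rnaseh1, which cuts RNA from DNA hybrids (-2.25), the small GTPase Rras (-2.18), the nudix hydrolase Nudt22 (-2.05), the inositol phosphatase Minpp1 (-1.89) and the Golgi mannosidase Man2a2 (-1.77) each missed the threshold without 4 to 6 of the captures in turn. Rnaseh1 reached 10 RPKM in 12% of dividing and 10.8% of non-dividing cells, and Nudt22 in 11% of dividing and 11.4% of non-dividing cells. The highest adjusted p of the 6 genes, in the order named, in the fits without a capture were 0.08, 0.113, 0.141, 0.0685, 0.07 and 0.0844. Leaving out the second capture of E11.5 gave 15 lower genes. Leaving out cells that carry the Sertoli markers gave 8, of which 5 were among the 26.

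Sox9 and Star are markers of Sertoli and of fetal Leydig cells. The Sertoli share did not differ between the kinds of cell past the test (exact p = 0.281 before adjustment). After adjustment over the marker lists a list on its own could not have passed, so that test cannot show a like share. The test of the Leydig share could not pass at all. Over all cells 33 of 100 dividing and 50 of 167 non-dividing cells carried the Sertoli markers. The part of the cell mix in both differences was not tested beyond the values here. Sox9, the Sertoli determination factor, had a lowest, median and highest mean of 16, 35.3 and 71.4 RPKM in dividing cells, against 48.5, 72.8 and 135 RPKM in non-dividing cells (-1.22 ± 0.29, adjusted p = 0.042). It was lower in 7 of 8 captures, the exception being the first E13.5 capture at 64.4 RPKM in dividing and 61.1 RPKM in non-dividing cells. The call was lost without any capture but that one (adjusted p of 0.0655 to 0.109). Without cells carrying the Sertoli markers the difference was -0.07 (adjusted p = 0.977). Sox9 is itself on the list by which those cells were left out, so that value cannot tell cell mix from Sox9 level. All 16 Sertoli markers were tested, 15 lay below 0 and Sox9 alone was called (median -0.54). The summed level of the list ran from 18.4 to 4589 RPKM, median 1341, in dividing cells and from 110 to 5781 RPKM, median 1010, in non-dividing cells.

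Among the 119 carriers, Sox9 reached 10 RPKM in 31 of 33 dividing and 46 of 50 non-dividing cells, with medians of 64.9 RPKM in dividing and 165 RPKM in non-dividing cells. Amh, the hormone that makes the Müllerian ducts regress, had medians of 13.2 RPKM in dividing and 12.4 RPKM in non-dividing carriers. In the same carriers Nusap1 reached 10 RPKM in 22 of 33 dividing and 0 of 50 non-dividing carriers, and Tpx2 in 28 of 33 dividing and 4 of 50 non-dividing carriers. Kif2c did so in 12 of 33 dividing and 0 of 50 non-dividing carriers. These are counts and medians over pooled captures and carry no test, and Sox9 and Amh are themselves on the list that chose the carriers. The pooled carriers are not matched by capture. The second E12.5 capture, outside the fit, gave 13 of the 33 dividing and 1 of the 50 non-dividing carriers. The E11.5 captures gave 0 dividing carriers and 4 and 6 non-dividing ones. In the fit on carriers alone, with 3 captures, 4 G2 and mitosis genes were called, and Nusap1 and Tpx2 were not (log2 differences 5.83 and 4.96, adjusted p = 0.0613 each).

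Star, which carries cholesterol into mitochondria for steroid synthesis, had a lowest, median and highest mean of 0, 0.0195 and 59.3 RPKM in dividing cells, against 0, 25 and 81.9 RPKM in non-dividing cells (-3.47 ± 0.69, adjusted p = 0.0112). It was lower in 7 of 8 captures. In the first E13.5 capture it stood at 59.3 RPKM in dividing and 71.7 RPKM in non-dividing cells, and at E10.5 it was near 0 in both. It was at 10 RPKM or more in 2 of 100 dividing and 25 of 167 non-dividing cells. All 6 fetal Leydig markers tested lay below 0 (median -2.59), Star alone being called. Hsd3b1 (-3.57, adjusted p = 0.0511), Cyp17a1 (-2.44) and Insl3 (-2.19), genes of androgen synthesis and testis descent, were not, and Cyp21a1 was listed at 0 in both kinds. The list's summed level ran from 0.0275 to 569 RPKM, median 1.08, in dividing cells and from 7.09 to 2144 RPKM, median 109, in non-dividing cells. Without Sertoli marker carriers Star had -2.41 (adjusted p = 0.315). Fewer Leydig cells among dividing cells and less message per cell cannot be told apart in such means.

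The reporter and its gene were not called. The eGFP message was at 400 to 2172 RPKM with a median of 876 in dividing and at 507 to 3719 RPKM with a median of 1876 in non-dividing cells, lower in 7 of 8 captures (-1.03 ± 0.33, adjusted p = 0.191). Nr5a1 had -0.98 ± 0.41 (adjusted p = 0.327) and was lower in the same number. The reporter message was at 10 RPKM or more in 88 of 100 dividing and 144 of 167 non-dividing cells, so not in every cell of either kind. Of the 19 testis determination and gonadal factors tested, Sox9 alone was called (median -0.31), with Gata4 at -0.30 ± 0.33. No gene was called among 14 interstitial progenitor markers (median -0.15), 7 smooth muscle markers (-0.24), 10 coelomic markers (0.11), 5 germ cell markers (-0.42), 5 endothelial markers (-1.23) or 3 mesonephric markers (0.47). The 1 macrophage marker tested, Csf1r, and the 1 erythroid marker tested, Alas2, were not called either, at -0.52 and -0.19. Such short lists can hold no call at the shares over all genes, 1.96% higher and 0.23% lower.

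Dividing cells differed among themselves in how far the S phase and mitotic programmes were on. A dividing cell had a median of 47 of the 91 G2 and mitosis genes at 10 RPKM or more (8 to 82), against 14 (4 to 71) in cells that were neither and 7 (0 to 37) in non-dividing cells. It had a median of 29.5 of 57 S phase genes (3 to 44), against 19.5 (2 to 48) in cells that were neither and 11 (1 to 43) in non-dividing cells. Across dividing cells the counts did not run together (Spearman rho -0.04 over 100 cells), while they did in cells that were neither (0.59, 132 cells) and in non-dividing cells (0.55, 167 cells). All these counts share the depth and detection of the cell. Over the 8 captures of the fit, the median number of G2 and mitosis genes ran from 43 to 55 in dividing cells and from 4 to 9.5 in non-dividing cells.

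**Figure D4:**
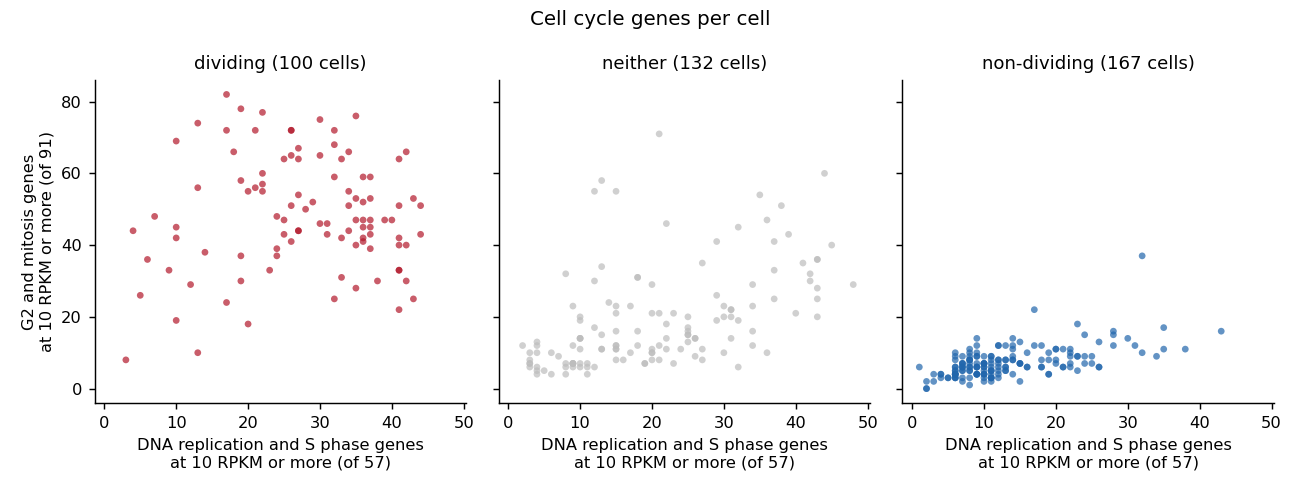
Number of G2 and mitosis genes (vertical axis, of 91) against number of DNA replication and S phase genes (horizontal axis, of 57) at 10 RPKM or more, each point a cell, for dividing, intermediate and non-dividing cells. Dividing cells spread over the upper part with a median of 47 mitotic genes and non-dividing cells lie at a median of 7.

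Single regulators reached 10 RPKM in only part of the dividing cells. Plk1, which peaks in mitosis, was at 10 RPKM or more in 52 of 100 dividing cells, and Ccne2, which peaks at the start of S phase, in 33. Both were on in 12 dividing cells, Plk1 alone in 40, Ccne2 alone in 21 and neither in 27. Cdk1 was at that level in 86 dividing cells, the most of the 18 regulators counted in dividing cells, and in 55 intermediate and 36 non-dividing cells. Over all cells Cdkn1c, at that level in 76 dividing, 98 intermediate and 127 non-dividing cells, was on in more. As shares of each kind these are 76%, 74.2% and 76%. Ccnb1 was carried by 73 dividing, 28 intermediate and 4 non-dividing cells, and Aurka by 49 dividing, 17 intermediate and 2 non-dividing cells. Cells that were neither lay between the kinds for these mitotic genes, while for Mcm5 they were at 67 of 132 (50.8%), against 48% of dividing and 33.5% of non-dividing cells.

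Over all 399 cells the genes whose levels ran closest to the mean log2 level of Mki67 and Top2a were Tpx2 (Spearman rho 0.66), Birc5, Sgol1 and Kif15 (0.65), Kif11 and Nusap1 (0.64), and Cenpf, Melk, Esco2 and Cdca8 (0.63). The lowest were Fth1 (-0.33), Calcoco1 (-0.24), Rps27rt (-0.23), Eef1a1 and Gabarap (-0.22). Cells share captures and depth, so these are descriptions.

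The contrast was compared between early captures (E10.5 and E11.5, 3 captures) and late ones (E12.5 to E16.5, 5 captures) by testing the change in the difference itself. No gene was called (0%), and 496 of 11286 genes (4.39%) had an unadjusted p under 0.05, as did 11 of the 247 called genes (4.45%). The smallest adjusted p was 0.171, for Mt1, a metallothionein, and Vnn1, a pantetheinase. Mt1 had a difference of 0.95 in late and -3.83 in early captures, and Vnn1 -0.02 in late and -4.53 in early ones. Acta2, smooth muscle actin, had 0.88 in late and -3.45 in early captures (adjusted p = 0.236). Over the alternatives the smallest adjusted p ran from 0.0595 (without the first E12.5 capture) to 0.996, with 0 calls in each. The early group has 3 captures only.

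**Figure D5:**
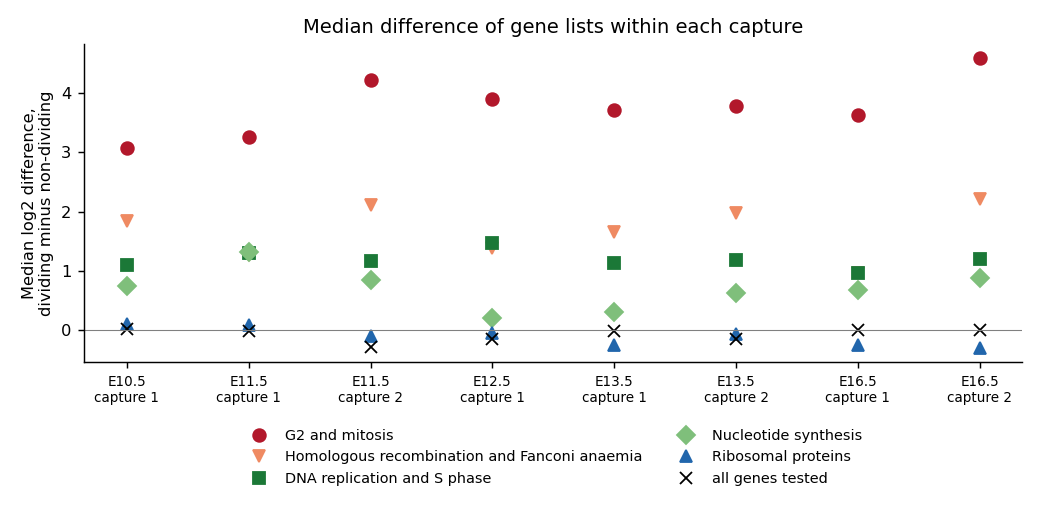
Median log2 difference, dividing minus non-dividing (vertical axis), of 5 gene lists and of all genes tested in each of the 8 captures (horizontal axis, by stage). The G2 and mitosis median lies between 3.07 and 4.59 in every capture and the S phase median between 0.96 and 1.47.

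The second E12.5 capture, outside the fit, gave a like picture for mitotic genes in its 17 dividing and 2 non-dividing cells. Nusap1 averaged 54.2 RPKM in dividing and 0.0362 RPKM in non-dividing cells, Ccnb1 68.4 RPKM in dividing and 0.0349 RPKM in non-dividing cells, and Tpx2 75.9 RPKM in dividing and 0.566 RPKM in non-dividing cells. Rrm2 averaged 144 RPKM in dividing and 128 RPKM in non-dividing cells, the 2 non-dividing cells having 216 and 38.6 RPKM. G0s2 averaged 7.91 RPKM in dividing and 7.37 RPKM in non-dividing cells. With 2 cells on one side these values have no test.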

How the data were processed

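RNA of single cells was captured on Fluidigm C1 chips, amplified with SMARTer and made into Nextera XT libraries, per the labels' protocols. The deposited values are RPKM per gene and cell for 16459 genes and 400 of 435 labelled cells in a table deposited by the authors; the unit was read from the values, and the remaining 35 labelled cells were not analysed here. GRCm38.p3 and mm10 are the builds listed, per the submitters' processing notes. Aligner, counter and filters: not given in the sources used here. Symbols were matched to GENCODE M21 (15900 found). A pair of cells (wells 49 and 56, second capture of E12.5) correlated at 0.998, against 0.701 for the next pair, and was averaged, which left 399 cells. Read depth per cell was inferred by taking the commonest low value of RPKM times gene length as 1 read.

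The mean RPKM of dividing and of non-dividing cells was taken per capture, and limma 3.58.1 (R 4.3.3; trend, robust empirical Bayes) was run on log2(mean + 1) with capture as a block (16 profiles, 7 residual degrees of freedom). Genes entered at 1 RPKM or more in the mean of the profiles. Pairing by capture comes from the design, since both kinds come from the same chip. P-values were adjusted by Benjamini-Hochberg over all genes tested, with a threshold of 0.05. Early and late captures were compared by limma on the per-capture differences (6 residual degrees). Single values were compared by exact two-sided sign-flip permutation over the 8 captures. No doublet caller was run.

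The genes named are the 12 with the largest difference each way among those called, alike in sign in all captures and at 5 RPKM or more in the higher kind, predicted models left out. Up to 4 called members of each list, or up to 2 with the highest mean where none was called, were added, as were fixed cell cycle regulators; other genes were picked after their values were seen. The members, lists and markers were chosen with earlier results of these data known. Alternatives changed the pseudocount, filter, scaling, summary, class limits, block, covariates, weights, cells and captures; the fit on Sertoli marker carriers alone was added after the data were seen.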

Additional observations from a re-analysis of the deposited data

Results flagged for a closer look

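Of 100 sets of per-capture differences (dividing minus non-dividing, 8 captures each), 15 had a highest or lowest capture whose gap to the nearest other, relative to the whole range, was past Dixon's 95% limit, which chance alone passes in about 1 in 20 sets. On the log2 scale, the second E16.5 capture stood apart for Rbak (-6.42), Cdkn1c (0.97), Ndufa4 (-1.31), Atp5c1 (0.94), Dppa4 (-4.88) and Csf1r (1.82). The first E11.5 capture stood apart for Kif11 (2.76), Parpbp (1.45) and Rpl32 (0.48), and without it Rpl32 was called lower (-0.34, adjusted p = 0.0172). The second E11.5 capture, with 5 dividing cells, stood apart for Idh1 (-3.55), Myl9 (-5.58) and Cdk1 (5.36), and the first E16.5 capture for Nop10 (-0.58). In percentage points of cells, the share carrying germ cell markers stood apart in the second E16.5 capture (-7.14) and that carrying mesonephric markers at E10.5 (-2.8), each of which rests on at most 1 cell of a kind.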

How the results depend on the processing

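With the mean over cells of log2 values 685 genes were higher, 10 lower and 41 S phase genes higher, and the median of all genes was 0.16 in place of -0.16. With detected genes as a covariate all 4 counts were 0. Among the 5 captures labelled 10M reads 127 genes were higher, 6 lower and 9 S phase genes higher. Among the 3 labelled 25M reads these counts were 78, 1 and 5, with 54 G2 and mitosis genes. Inferred depth lay below the labels, with a highest capture median of 8.43 M reads. The 25M label falls on E10.5 and E13.5, so label, stage and number of captures cannot be told apart here. Among Sertoli marker carriers alone (3 captures) 5 genes were higher, 0 lower, 4 of G2 and mitosis and 0 of S phase, and Rnaseh1 turned to 1.39. Lower genes numbered 13 and S phase genes 12 with no filter, 43 and 13 with all other cells as the comparison group, and 8 and 13 without Sertoli marker carriers; lower genes numbered 2 with non-dividing cells at 0 in both markers. Leaving out each capture gave 188 to 206 higher genes, 15 to 25 lower genes, 81 to 84 G2 and mitosis genes and 14 to 19 S phase genes. Without the capture block 212 were higher and 24 lower. The causes were not tested. Of 52 named genes that were called, Rnaseh1 among Sertoli marker carriers was the only one to change sign in these alternatives. Of all called genes, 4 higher and 1 lower changed sign with the covariate, and 2 higher and 2 lower among Sertoli marker carriers. Of 38 named genes that were not called, 7 passed in some alternative, and 93 of their 1112 other alternative values had the other sign. The difference in detected genes ran from 881 to 1088 over its alternatives. Means over few cells limit every value of a capture with 5 dividing cells.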
